A study of Mus musculus with 12 samples.

Results

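The type I interferon-stimulated effector genes were followed in 2 mouse RNA-seq experiments as a set of 38 genes, chosen by symbol from the 55487 genes of each count table. All 38 had counts in both tables and passed the filter on low counts in both. Bone marrow-derived macrophages (BMMs) came from the limbs of C57BL/6 mice, labelled 8 weeks old, that were ovariectomized (OVX, 3 libraries) or sham operated (sham, 3 libraries). They had been grown from marrow with macrophage colony-stimulating factor. OVX lowers estrogen and is a model of postmenopausal osteoporosis. Mesenchymal stem cells (MSCs) of C57BL/6 mice, also labelled 8 weeks old, were cultured alone (MSC, 2 libraries), with RAW264.7 cells, a mouse macrophage line (MSC+RAW-TW, 2 libraries), or with RAW264.7 cells stimulated with lipopolysaccharide (MSC+RAW-LPS-TW, 2 libraries). TW stands for transwell in the study's group names, and the MSCs were plastic-adherent marrow cells of a low passage. The study compared the macrophages to characterize them in osteoporosis, and the MSCs to see how macrophages change them. Whether libraries came from separate animals or cultures was not given in the sources used here, so p-values measure the spread between these libraries.

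Type I interferons bind the receptor IFNAR1/IFNAR2, whose kinases JAK1 and TYK2 start the signal. Complexes that hold STAT2 and IRF9 carry it to the nucleus and bind the interferon-stimulated response element (ISRE) in the promoters of target genes. The products sense foreign RNA and DNA, block translation or degrade RNA, restrict viruses directly, or attach and remove the ubiquitin-like protein ISG15. In macrophages these genes are known both for a low level of constant interferon signaling and for a strong response to lipopolysaccharide.

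Library totals ran from 17012923 to 45367105 counts. Sham replicates 2 and 3 were nearly identical, as were the 2 MSC+RAW-TW libraries. Their difference did not grow with the count as it did in every other pair, and each pair was counted as 1 sample. The tests therefore had n = 3 for OVX, 2 for sham, 2 for MSC, 1 for MSC+RAW-TW and 2 for MSC+RAW-LPS-TW, and the lone MSC+RAW-TW sample was assumed to vary like the other groups. The columns of both MSC+RAW-TW libraries carry the number 1, so they are called first and second here. Those of MSC+RAW-LPS-TW carry the numbers 2 and 3. Summed over 14 macrophage markers the level was 46080 to 67050 CPM (the library's counts scaled to a common total by the trimmed mean of M-values, TMM) in the BMM libraries. It was 30060 to 30480 CPM in MSC, 38650 to 39250 CPM in MSC+RAW-TW and 15460 to 15700 CPM in MSC+RAW-LPS-TW. Summed over 12 stromal markers it was 6940 to 8229 CPM in the BMM libraries and 2128 to 4066 CPM in the MSC table. The libraries labelled MSC thus held more macrophage than stromal marker RNA, and Ptprc, the leukocyte antigen CD45 that MSCs lack by definition, was at 169 to 172 CPM in them. The BMM libraries held stromal marker RNA too, and its sum there was above that of every library of the MSC table. The tables were normalized separately. What part these levels had in the results of either table was not tested.

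Of the 38 genes, 20 lie within 100 kb of another member, in 7 groups of neighbors. The annotation of the files' build, GRCm38, placed 7 on chromosome 11, 6 on chromosome 16, 6 on chromosome 5 (the Oas and Oasl genes) and 4 on chromosome 19 (the Ifit genes). Rsad2 and Cmpk2 lie 12751 bases apart on chromosome 12 on opposite strands. Exons of 4 members overlap another gene on the same strand (Ifi47, Herc6, Parp14 and Rtp4), and exons of 8 overlap one on the other strand. Counts of close paralogs, such as Ifit3 with Ifit3b and Oas1a with Oas1g, are uncertain where reads could come from either copy.

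A promoter window of 250 bases before and 50 after the start site (RefSeq, GRCm38.p6) was found for 27 of the 38 genes. The ISRE core GAAANNGAAA, searched on both strands, occurred in the windows of 14 of the 27 (51.9%). It occurred in 3.99% of all 27025 genes with a window. The interferon gamma activated site TTCNNNGAA, which reads the same on both strands, occurred in 5 of the 27 (18.5%) and in 9.55% of all genes. The 6 stretches below are shown because their genes carry the results that follow. They read 5′ to 3′ on the strand of the gene, lie before the start site, and have a match to the ISRE core, or to its reverse complement, in capitals.
Isg15, minus strand, chr4:156200841-156200930: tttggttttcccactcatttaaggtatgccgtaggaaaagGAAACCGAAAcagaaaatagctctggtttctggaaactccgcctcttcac
Ifit1, plus strand, chr19:34640764-34640853: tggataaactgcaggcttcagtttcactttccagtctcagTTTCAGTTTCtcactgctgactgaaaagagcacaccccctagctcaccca
Ifit3, plus strand, chr19:34583367-34583456: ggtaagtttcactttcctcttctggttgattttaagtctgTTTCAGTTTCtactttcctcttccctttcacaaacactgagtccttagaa
Rsad2, minus strand, chr12:26456523-26456612: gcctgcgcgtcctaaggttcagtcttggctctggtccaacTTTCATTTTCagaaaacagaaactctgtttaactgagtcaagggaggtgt
Oas1a, minus strand, chr5:120907526-120907585: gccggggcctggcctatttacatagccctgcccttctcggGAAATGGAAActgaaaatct
Oas1g, minus strand, chr5:120887614-120887671: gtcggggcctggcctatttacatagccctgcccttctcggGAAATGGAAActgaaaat

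The Isg15 match began at base -72 from the start site and overlapped a further match on each side. Those of Ifit1, Ifit3 and Rsad2 began at -85, -122 and -120, and those of Oas1a and Oas1g at -20 and -18. Both stretches of Ifit3 that hold a match recur without a change in the window of Ifit3b, and the longest run the windows share is 169 of 250 bases. The longest run shared by Oas1a and Oas1g is 56 bases. Of the members with a window, the ISRE core was present in 8 of the 14 called lower in OVX (by the rule given next) and in 6 of the 13 not called there. A match is a description of these letters and was not tested for binding.

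The effector genes were lower in OVX than in sham macrophages. A gene was called when its fold change was at least 2 and its adjusted p at most 0.05 (edgeR quasi-likelihood test, Benjamini-Hochberg over all genes tested). By this rule 20 of the 38 were lower and 0 higher, where 3.08% of all 16768 genes tested were called lower and 5.39% higher. By the adjusted p alone 23 were lower and 0 higher, beside 5.83% and 7.26% of all genes. At an unadjusted p of at most 0.05, 28 were lower and 0 higher, beside 14.2% and 15.7%. DESeq2 also called 0 higher and 20 lower. The median log2 fold change of the 38 was -1.11, against -0.01 over all genes, and the range was -2.51 to 0.17. In 28 of the 38 genes every OVX library was below every sham library, and in 0 was every OVX library above. Over all genes tested these shares were 19.9% and 22.7%. The sum of the 38 genes was 1918, 1668 and 1592 CPM in OVX replicates 1 to 3 and 3677, 3382 and 3465 CPM in sham replicates 1 to 3. The groups did not overlap in this sum. In bulk RNA, fewer cells of a type and less RNA per cell cannot be told apart. The library numbers in the column names form 2 series, 1 of which holds OVX 2 and sham 2. The sum was 1668 against 3382 CPM within it, and 1592 to 1918 against 3465 to 3677 CPM in the other.

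**Figure D1:**
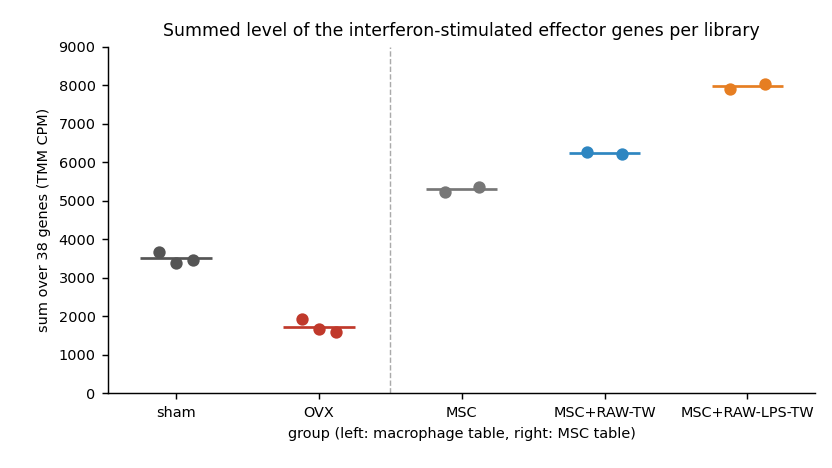
Summed TMM CPM of the 38 interferon-stimulated effector genes (y axis) in each of the 12 libraries (points) by group (x axis), with a line at the plain mean of the libraries of a group. The OVX libraries sit at 1592 to 1918 CPM, below the sham libraries at 3382 to 3677 CPM, and the MSC+RAW-LPS-TW libraries, at 7914 and 8030 CPM, sit above the other MSC groups. The tables were normalized separately, so levels on the left and right of the dashed line are not tested against each other.

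The OAS family makes the messenger that switches on RNase L. Together with the exonuclease Isg20 it was the role with the lowest median log2 fold change, -1.94, and 5 of its 7 genes were called lower. Oasl1 (chr5:114923240-114937915), an OAS-like protein without synthetase activity that restrains Irf7 translation, had the largest change. It was at 8.97, 9.04 and 8.29 CPM in the OVX libraries and 46.3, 48.4 and 53.4 CPM in the sham libraries (log2 fold change -2.51, SE 0.18, adjusted p = 0.00116). Each OVX library was far below each sham library. Oas3 was at 19.4, 19.8 and 20.2 CPM in OVX and 78.6, 80.1 and 73.9 CPM in sham (-2.01, SE 0.16, adjusted p = 0.00179). Its values within a group lay close together. Oas1g was at 18.5, 23.9 and 17.5 CPM in OVX and 67.0, 82.8 and 88.3 CPM in sham (-1.98, adjusted p = 0.00453). Oas1a was at 16.7, 22.5 and 17.8 CPM in OVX and 47.2, 89.4 and 96.5 CPM in sham (-1.93, SE 0.30, adjusted p = 0.00882). Sham replicate 1 was the lowest sham library for both paralogs. Oasl2 was called lower too (-1.35, adjusted p = 0.0109). Isg20 and Oas2 were not called, at -0.92 and -0.90.

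Isg15 and the protease that removes it from its targets, Usp18, moved together. Isg15 (chr4:156199455-156200796) was at 34.4, 23.1 and 25.9 CPM in OVX and 90.8, 123 and 137 CPM in sham (-2.04, SE 0.25, adjusted p = 0.00545). Usp18, which also damps signaling at IFNAR2, was at 37.0, 34.1 and 34.1 CPM in OVX and 112, 119 and 117 CPM in sham (-1.75, SE 0.17, adjusted p = 0.00301). Both genes had groups that stood well apart. The other 5 genes of the ubiquitin system were not called. Their log2 fold changes ran from -0.78 for Dtx3l, a ubiquitin ligase that pairs with Parp9, to 0.00 for Herc6, the ligase that attaches Isg15 in the mouse. Herc6 was at 12.9 to 16.1 CPM in OVX and 12.5 to 14 CPM in sham. Parp9, Parp14, Trim30a and Herc6 had overlapping groups.

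Of the Ifit family, which binds viral RNA and hinders its translation, 2 genes were called lower. Differences between its genes were not tested. Ifit3 was at 37.8, 39.0 and 29.5 CPM in OVX and 143, 70.0 and 66.3 CPM in sham (-1.60, SE 0.29, adjusted p = 0.0134). Ifit3b was at 7.31, 6.07 and 7.24 CPM in OVX and 21.5, 22.3 and 21.5 CPM in sham (-1.70, SE 0.20, adjusted p = 0.00491). Sham replicate 1 stood above the other sham libraries for Ifit3 and not for Ifit3b. Ifit1 and Ifit2 were not called, at -0.80 (adjusted p = 0.0537) and -0.11 (adjusted p = 0.806), although Ifit1 had no overlap between groups.

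Of the restriction factors, 5 of 6 were called lower, with a median log2 fold change of -1.25. They were Mx1 and Mx2, dynamin-like GTPases, Rsad2, the radical SAM enzyme viperin, its neighbor Cmpk2, a mitochondrial nucleotide kinase, and Bst2, the membrane protein tetherin. Their log2 fold changes ran from -1.44 (Cmpk2) to -1.05 (Bst2). Bst2, the most abundant of the 6 per kilobase of exon, was at 249, 198 and 216 CPM in OVX and 403, 457 and 503 CPM in sham, with no overlap. Ifi47, an interferon-inducible GTPase, was at -0.74 and was not called.

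Among the sensors, Zbp1, which reads Z-form nucleic acid, was at 39.96, 42.3 and 47.6 CPM in OVX and 127, 128 and 117 CPM in sham (-1.56, SE 0.17, adjusted p = 0.00453). Dhx58, the regulatory RIG-I-like receptor LGP2, was called lower as well (-1.51, adjusted p = 0.00491). The related receptors differed from it in their values. Ddx58 (RIG-I) had a log2 fold change of -0.82 (adjusted p = 0.03), past the adjusted p but short of the fold limit, and Ifih1 (MDA5) one of 0.03 with overlapping groups. Ifi204, a DNA sensor, was at 54.9 to 77.4 CPM in OVX and 33.9 to 73.7 CPM in sham and had the highest log2 fold change of the 38, at 0.17 (adjusted p = 0.735).

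Slfn1, a Schlafen protein tied to growth arrest of T cells, was low in these macrophages and lower in OVX, at 3.33, 3.08 and 5.53 CPM against 12.3, 13.4 and 12.9 CPM in sham (-1.71, SE 0.29, adjusted p = 0.0111). Slfn5 and Slfn8, on the same stretch of chromosome 11, were both at -0.14 with overlapping groups. Ifi27l2a (chr12:103442167-103443680), a small membrane protein, was the most abundant member per kilobase. It was at 219, 232 and 185 CPM in OVX and 624, 595 and 594 CPM in sham (-1.56, SE 0.18, adjusted p = 0.00491), so that the OVX libraries held well under the level of any sham library. Ifi35 (-1.31) and Xaf1 (-1.19, adjusted p = 0.0437) were also called lower. Xaf1 was at 30.2, 31.9 and 27.5 CPM in OVX and 95.6, 41.4 and 37.1 CPM in sham. Sham replicate 1 stood far above the other sham libraries, and without it the log2 fold change was -0.45. Ifi44, Rtp4 and Phf11d were not called, at -0.40, -0.82 and -0.82.

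**Figure D2:**
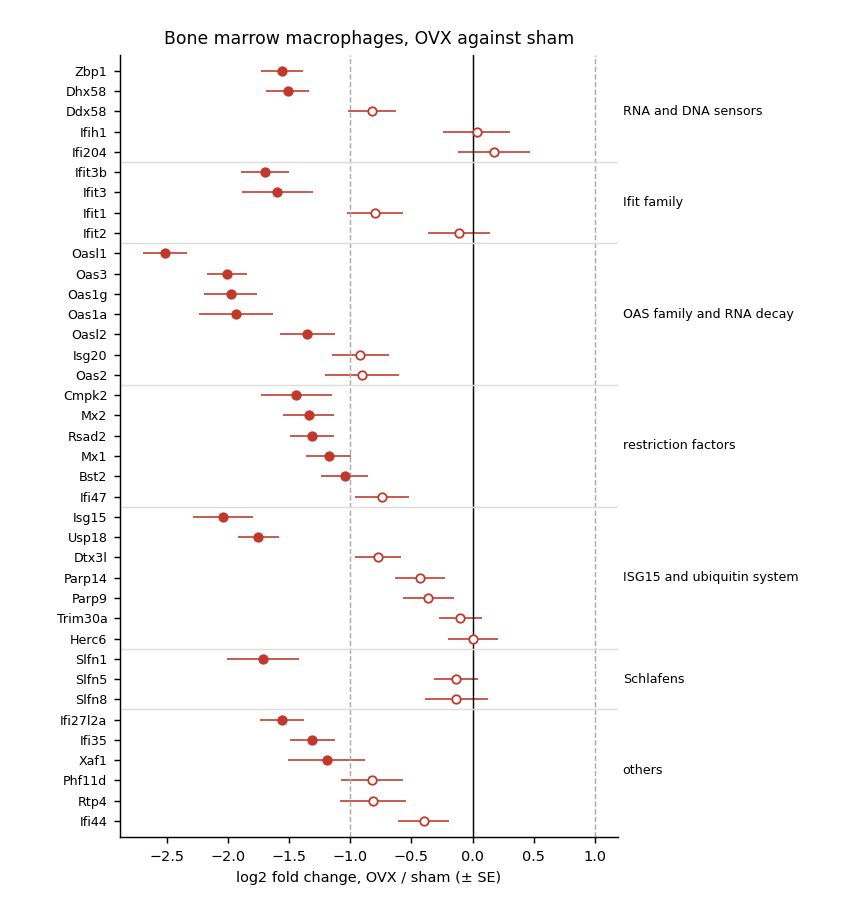
Log2 fold change of OVX over sham (x axis, bars ± SE) for each of the 38 genes (y axis), grouped by role. Filled points are the 20 called genes, open points the 18 not called, and dashed lines mark a fold change of 2. All filled points lie left of -1, and the largest decrease is Oasl1 at -2.51.

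The number called lower depended on OVX replicate 2: without it 11 genes were called, and Bst2, Cmpk2, Ifit3, Mx1, Mx2, Oasl2, Rsad2, Slfn1 and Xaf1 were not. The log2 fold changes of these 9 were then -1.66 to -0.96, with adjusted p from 0.0506 to 0.132 in edgeR with 1 OVX sample fewer. Without OVX replicate 1 the number was 16, and Ifit3, Oas1a, Slfn1 and Xaf1 were not called. Xaf1 also lost its call without OVX replicate 3, sham replicate 1 or sham replicate 2 and with all libraries as separate samples, and Bst2 without sham replicate 3. After trends on GC content and exon length were removed from each library, 23 were called lower. Bst2 (-0.65) and Ifi35 (-0.985) were then not called, and Ddx58, Dtx3l, Ifi44, Ifit1 and Phf11d were. The member median stayed between -1.20 and -1.03 in all alternatives. Of 14 macrophage markers 2 were called lower, Adgre1 (-1.19) and Fcgr1 (-1.12), and 0 higher, beside 3.08% and 5.39% of all genes. In 10 of the 14 every OVX library was below every sham library, as in 19.9% of all genes. Ptprc went the other way in its values, at 107 to 161 CPM in OVX and 69.1 to 88.4 CPM in sham. Cd68, Mertk and Mpeg1 had overlapping groups, with Mpeg1 at 850.2 to 1043 CPM in OVX and 552 to 926 CPM in sham. The median log2 fold change of the 14 was -0.65, and their sum was 46080 to 50060 CPM in OVX and 59670 to 67050 CPM in sham. Lyz2 made up most of it, and without Lyz2 the sum was 8982 to 9521 CPM in OVX and 12930 to 14540 CPM in sham. Markers of plasmacytoid dendritic cells, strong producers of interferon, summed to 330 to 386 CPM in OVX and 474 to 589 CPM in sham. Bst2, itself a member, made up most of that sum, and without it the sum was higher in OVX, at 102 to 170 CPM against 71.2 to 87.95 CPM. The remainder was mostly Tcf4, and the defining marker Siglech had at most 3 counts in each sham library. B cell markers summed to 8.35 to 9.36 CPM in OVX and 18.7 to 22.6 CPM in sham. The part of these cells in the result was not tested.

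Some of the genes that carry the interferon signal were lower in OVX. Of 23 receptor, signal, induction and feedback genes, all of which were tested, 5 were called lower and 0 higher, beside the 3.08% and 5.39% of all genes. At an unadjusted p of at most 0.05, 14 were lower and 1 higher, where 14.2% and 15.7% of all genes were. The median log2 fold change was -0.65. Irf7, the factor that amplifies interferon production, was at 30.1, 40.6 and 43.3 CPM in OVX and 138, 186 and 186 CPM in sham (-2.14, SE 0.23, adjusted p = 0.00453). Every OVX library was far below every sham library. Stat2 had a log2 fold change of -1.20 (adjusted p = 0.00868). The other called genes were Ikbke (-1.08), a kinase that activates Irf3 and Irf7, and the feedback inhibitors Socs1 (-1.22) and Socs3 (-1.55). By the adjusted p alone 10 of the 23 were lower and 0 higher, beside 5.83% and 7.26% of all genes. Of the 6 receptor and signal genes only Stat2 was called. Irf9 (-0.92) and Tyk2 (-0.87) passed the adjusted p but not the fold limit, and Jak1 was at 0.04. The highest value was that of the RNA receptor Tlr7, at 0.90, which was not called. The receptor chains had values of -0.15 (Ifnar1) and -0.53 (Ifnar2) and were not called.

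Hardly any type I interferon RNA was seen. Of 14 interferon alpha genes, 13 had no count in any of the 12 libraries of both tables. A count of 0 allows a level of up to 0.0661 to 0.176 CPM (3 counts of the total, counting error only). Ifnb1 reached at most 14 counts in a BMM library, in sham replicate 1 at 0.371 CPM, and was at 0 in the other sham libraries and at 0.0308 to 0.106 CPM in OVX. In the MSC table it reached at most 4 counts. Ifnz, interferon zeta, was the only one of 18 ligand genes to pass the filter, with at most 15 counts in a BMM library and 22 in an MSC library. It overlapped between the groups of every comparison and had a log2 fold change of -0.47 (SE 0.94) in OVX. At these levels no difference was detectable.

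In the MSC table the effector genes were higher with LPS-stimulated RAW cells. Against MSC alone, 14 of the 38 were called higher and 1 lower, where 5.85% of all 20499 genes tested were called higher and 5.09% lower. The median log2 fold change was 0.69, against -0.01 over all genes. Both MSC+RAW-LPS-TW libraries were above both MSC libraries in 32 genes and below in 4, where 28.1% and 29.4% of all genes separated in these ways. By the adjusted p alone 26 were higher and 3 lower, beside 11.1% and 9.85% of all genes. Of the 14 genes called higher 8 were called lower in OVX, close to the share over all members, 20 of 38.

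The largest rise was that of Isg20, at 6.83 and 6.47 CPM in MSC and 20.6 and 26.3 CPM in MSC+RAW-LPS-TW (log2 fold change 1.83, SE 0.21, adjusted p = 8.08e-06). Rsad2 was at 32.5 and 41.3 CPM in MSC and 118 and 117 CPM in MSC+RAW-LPS-TW (1.68, SE 0.17, adjusted p = 1.64e-06). Ifit1 was at 132 and 148 CPM in MSC and 435 and 438 CPM in MSC+RAW-LPS-TW (1.65, SE 0.15, adjusted p = 8.33e-07). In each of these genes both libraries of one group were above both of the other, with similar values within MSC+RAW-LPS-TW for Rsad2 and Ifit1. Ifit3 rose to 481 and 468 CPM from 202 and 186 CPM (1.30, adjusted p = 8.80e-06) and Ifit3b by a log2 fold change of 1.24. The fourth member of the family went the other way in its values: Ifit2 was at 85.5 and 104 CPM in MSC and 64.6 and 48.5 CPM in MSC+RAW-LPS-TW, and at -0.74 it was not called.

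Usp18 was at 180 and 174 CPM in MSC and 447 and 606 CPM in MSC+RAW-LPS-TW (1.58, SE 0.17, adjusted p = 4.81e-06). Isg15 was at 85.2 and 86.7 CPM in MSC and 225 and 276 CPM in MSC+RAW-LPS-TW (1.55, SE 0.16, adjusted p = 2.48e-06). All 7 genes of the ISG15 and ubiquitin group were higher by the adjusted p alone, which 11.1% of all genes were, and 4 were called, Herc6 (1.08) and Dtx3l (1.02) being the others. Herc6, which had overlapping groups in the macrophages, was at 36.6 to 38.3 CPM in MSC and 78.1 to 78.8 CPM in MSC+RAW-LPS-TW. Dtx3l was not called without MSC replicate 1 (log2 fold change 0.94) or without MSC+RAW-LPS-TW replicate 2 (0.90), and the number called higher then was 13 and 14.

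Of the OAS family, Oasl1 was called, at 107 and 106 CPM in MSC and 223 and 348 CPM in MSC+RAW-LPS-TW (1.43, SE 0.19, adjusted p = 3.85e-05). The synthetases Oas1a, Oas1g, Oas2, Oas3 and the related Oasl2 were not called and had values from -0.53 to 0.24. Of these 5, all but Oas2 were called lower in OVX. Among the restriction factors Mx2 was called besides Rsad2. It was at 28.3 and 26.5 CPM in MSC and 80.7 and 57.6 CPM in MSC+RAW-LPS-TW (1.34, SE 0.18, adjusted p = 3.86e-05). Of the sensors Ifih1 and Zbp1 were called. Ifih1 was at 60.2 and 66.6 CPM in MSC and 172 and 136 CPM in MSC+RAW-LPS-TW (1.29, SE 0.16, adjusted p = 2.45e-05), and Zbp1 was at 156 and 160 CPM and 348 and 324 CPM (1.10, adjusted p = 4.72e-05). Phf11d, a PHD finger protein, was at 91.8 and 96.7 CPM in MSC and 221 and 275 CPM in MSC+RAW-LPS-TW (1.40, SE 0.16, adjusted p = 7.94e-06). Of the Schlafens none of 3 was called, with values from 0.06 to 0.54. Slfn1 was at 120 and 103 CPM in MSC and 160 and 163 CPM in MSC+RAW-LPS-TW.

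Ifi27l2a was the exception among the called genes. It was at 606 and 656 CPM in MSC and 203 and 344 CPM in MSC+RAW-LPS-TW (-1.20, SE 0.21, adjusted p = 0.000468), with both libraries below both MSC libraries. Without MSC+RAW-LPS-TW replicate 2, which had the lower level, the log2 fold change was -0.89 and no member was called lower. Bst2, the second most abundant member per kilobase, was at 254 and 218 CPM in MSC and 313 and 362 CPM in MSC+RAW-LPS-TW and was not called (0.53).

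**Figure D3:**
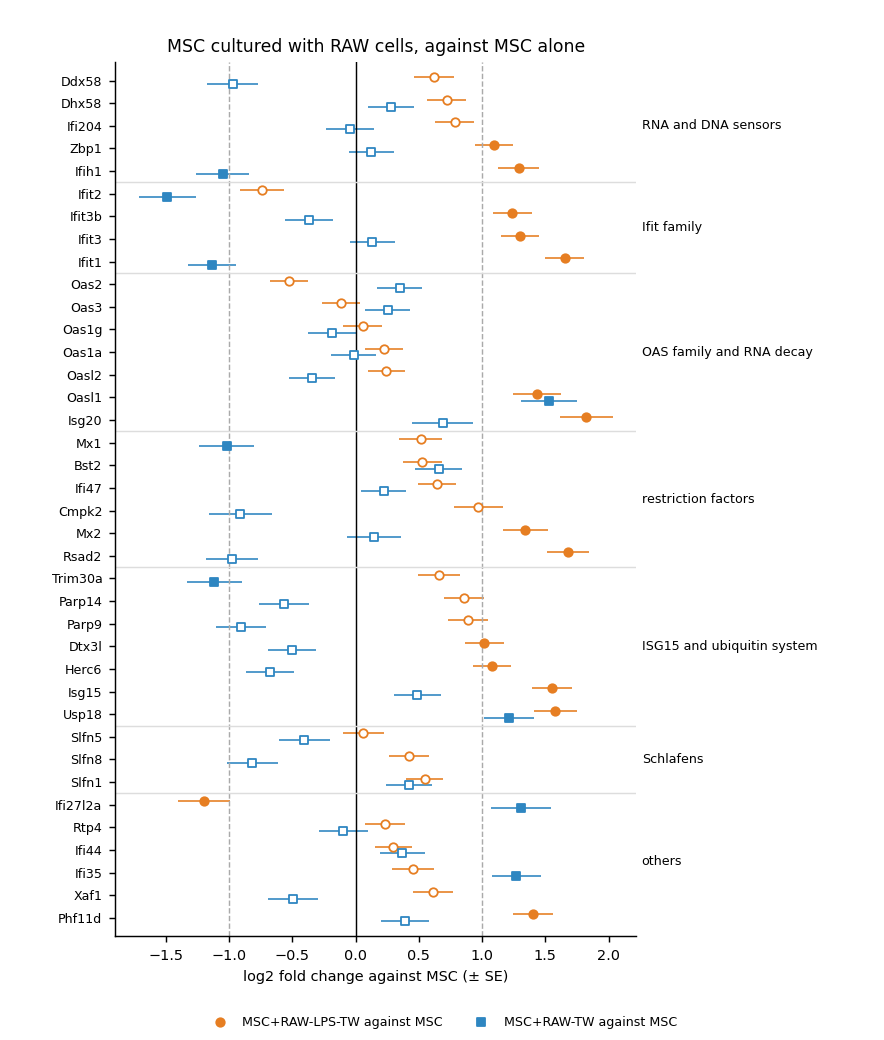
Log2 fold change against MSC alone (x axis, bars ± SE) of MSC+RAW-LPS-TW (circles) and MSC+RAW-TW (squares) for each of the 38 genes (y axis), grouped by role. Filled symbols are called genes and dashed lines mark a fold change of 2. Both comparisons share the MSC libraries. Most circles lie right of 0 with Ifi27l2a at -1.20, and the squares spread from -1.49 to 1.53.

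With untreated RAW cells, against MSC alone, 4 of the 38 were called higher and 5 lower, beside 6.8% and 9.59% of all genes tested. By the adjusted p alone 6 were higher and 12 lower, beside 13.8% and 14.8% of all genes. The median of the 38 was -0.07 and that of all genes -0.13, so changes are read against a shift of that size. The numbers called were only slightly above the shares over all genes, and MSC+RAW-TW entered as 1 sample. The genes called higher were Oasl1, Ifi27l2a, Ifi35 and Usp18. Ifi27l2a reached 1531 and 1499 CPM in the 2 MSC+RAW-TW libraries (1.31, SE 0.24, adjusted p = 0.00119). Oasl1 was at 300.3 and 295 CPM there (1.53, SE 0.22, adjusted p = 0.000306) and Usp18 at 391.7 and 407 CPM (1.21, SE 0.20, adjusted p = 0.000597). Ifi35 was at 54.6 and 60.9 CPM in MSC and 141 and 129 CPM in MSC+RAW-TW (1.27, SE 0.20, adjusted p = 0.000423). In these 4 genes both MSC+RAW-TW libraries, which count as 1 sample, were above every MSC library.

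The genes called lower with untreated RAW cells were Ifit2 (-1.49), Ifit1 (-1.14), Trim30a (-1.12), Ifih1 (-1.05) and Mx1 (-1.02). Ifit1 was at 61.7 CPM in both MSC+RAW-TW libraries, and Rsad2, at 17.7 and 18.7 CPM, had a log2 fold change of -0.98, just short of a call. After trends on GC content and exon length were removed from each library, 0 members were called lower. These 5 genes then had values from -0.87 (Ifit2) to -0.40 (Trim30a). The number called higher was again 4, with Ifi44 (1.17) called and Ifi35 (0.97) not. Without MSC replicate 2 the number called lower was 3 and the median of the 38 was 0.06.

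Between the 2 co-cultures 19 genes were called higher with LPS-stimulated than with untreated RAW cells and 1 lower, beside 15.4% and 12% of all genes. By the adjusted p alone 23 were higher and 3 lower, beside 21.3% and 18.9%. The median was 0.99, against 0.14 over all genes. The largest values were those of Ifit1 (2.79, SE 0.21, adjusted p = 1.22e-07), Rsad2 (2.66, SE 0.23) and Ifih1 (2.34, SE 0.22). The gene called lower was Ifi27l2a (-2.51, SE 0.24, adjusted p = 1.35e-06). Oasl1 and Usp18, high in both co-cultures, had log2 fold changes of -0.09 and 0.37 and were not called. With 1 sample in MSC+RAW-TW this comparison shares its spread with the other groups. Without MSC+RAW-LPS-TW replicate 2 or replicate 3 the number called higher was 17 in each case. After detrending for GC content and exon length it was 15: Zbp1 (1.16) was then called, while Herc6 (0.77), Parp14 (just under 1), Phf11d (0.42), Slfn8 (0.74) and Xaf1 (0.90) were not. Without replicate 3 the number called lower was 2.

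**Figure D4:**
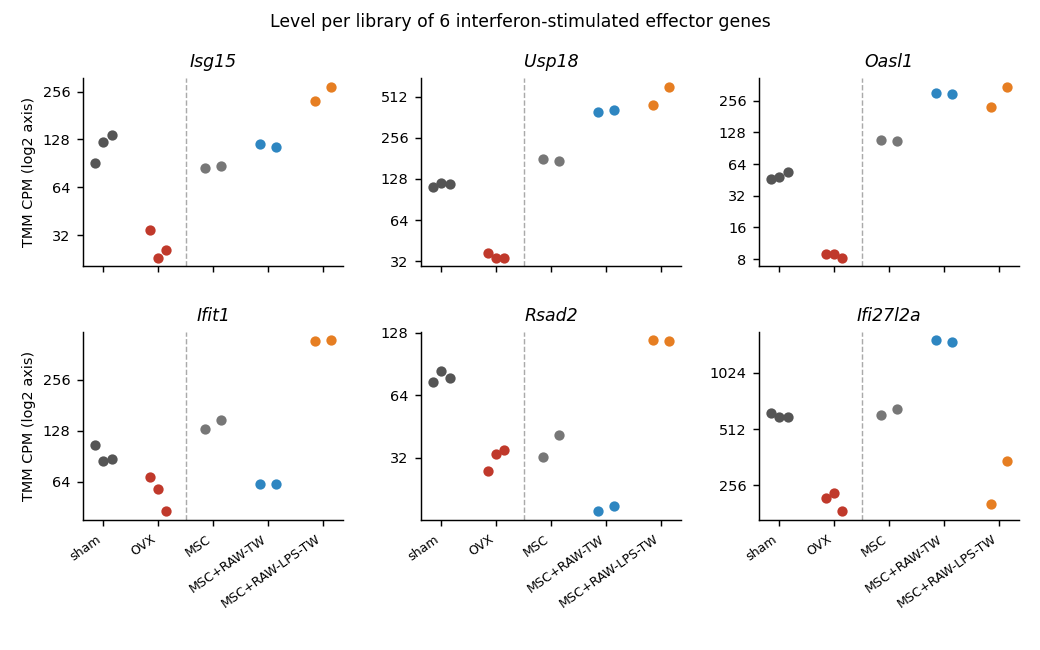
TMM CPM (y axis, log2 scale) of Isg15, Usp18, Oasl1, Ifit1, Rsad2 and Ifi27l2a in each library (points) by group (x axis). The tables left and right of the dashed line were normalized separately. Oasl1 and Usp18 are high in both co-cultures, Ifit1 and Rsad2 are lowest in MSC+RAW-TW and highest in MSC+RAW-LPS-TW among the MSC groups, and Ifi27l2a peaks in MSC+RAW-TW at 1499 to 1531 CPM.

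Over the 5 groups 6 members were called in no comparison: Ifi204, Ifi44, Ifi47, Oas2, Rtp4 and Slfn5. Per kilobase of exon, Ifi27l2a had the highest mean level in every group, at 1317 CPM per kb in sham, 458 in OVX, 1363 in MSC, 3272 in MSC+RAW-TW and 591 in MSC+RAW-LPS-TW. Bst2 was next in every group, at 244 to 489 CPM per kb. The third was Rtp4 in OVX (50.02) and Isg15 in the other groups (122 to 356). The tables were normalized separately. The sum of the 38 genes was 5235 and 5362 CPM in MSC, 6256 and 6223 CPM in MSC+RAW-TW, and 7914 and 8030 CPM in MSC+RAW-LPS-TW. The groups did not overlap in it. Without Ifi27l2a the sum was 4630 and 4706 CPM in MSC, 4725 and 4724 CPM in MSC+RAW-TW, and 7710 and 7687 CPM in MSC+RAW-LPS-TW, so the higher sum in MSC+RAW-TW was mostly that gene.

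Of the 23 signaling genes, 3 were called higher and 3 lower in MSC+RAW-LPS-TW against MSC alone, beside 5.85% and 5.09% of all genes. The feedback inhibitors rose most. Socs3 was at 26.0 and 24.6 CPM in MSC and 424 and 413 CPM in MSC+RAW-LPS-TW (4.06, SE 0.16, adjusted p = 9.23e-11), and Socs1 at 10.5 and 13.4 CPM and 129 and 122 CPM (3.40, SE 0.18, adjusted p = 1.42e-09). Ifnar2 rose by a log2 fold change of 1.31, while the receptor Tlr4, which senses LPS, fell to 16.2 and 15.3 CPM from 31.6 and 39.4 CPM (-1.16, adjusted p = 0.000153). The DNA receptor Tlr9 (-2.64) and Tmem173 (-1.13), the adaptor STING, were called lower too. Irf7 was at 602 and 595 CPM in MSC, 1848 and 1822 CPM in MSC+RAW-TW and 882 and 1321 CPM in MSC+RAW-LPS-TW. It was called higher only against MSC in MSC+RAW-TW among these 3 comparisons (1.66, SE 0.21, adjusted p = 0.0002), and its value in MSC+RAW-LPS-TW against MSC was 0.89 (adjusted p = 0.00217). In MSC+RAW-TW against MSC 1 of the 23 was called higher, Irf7, and 3 lower: the DNA sensor Cgas (-1.30), Tlr9 (-1.29) and the RNA receptor Tlr3 (-1.25), beside 6.8% and 9.59% of all genes. Between the co-cultures 5 were called higher with stimulated RAW cells, beside 15.4% of all genes: Socs1 (3.34), Socs3 (3.30), Ifnar2 (1.68), Tlr3 (1.26) and Ifnar1 (1.11). The 3 called lower, beside 12% of all genes, were Tmem173 (-1.89), the transcription factor Irf5 (-1.48) and Tlr9 (-1.35).

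**Figure D5:**
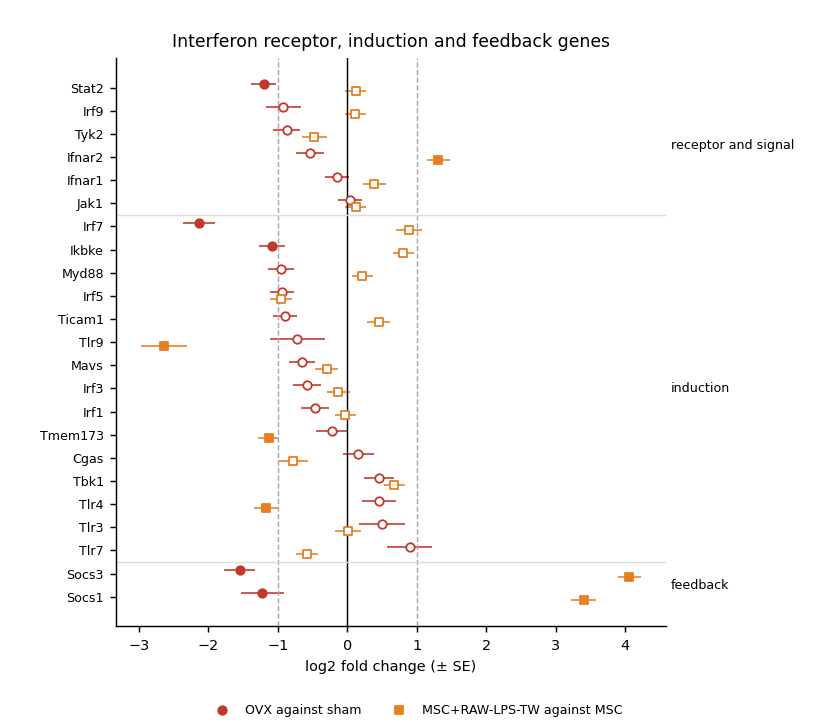
Log2 fold change (x axis, bars ± SE) of 23 receptor, signal, induction and feedback genes (y axis) in OVX against sham (circles) and MSC+RAW-LPS-TW against MSC (squares). Filled symbols are called genes and dashed lines mark a fold change of 2. In OVX the 5 filled circles, led by Irf7 at -2.14, lie left of -1. In the MSC table Socs3 and Socs1 lie furthest right, at 4.06 and 3.40.

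Some cell markers of the MSC table moved with these comparisons. Of 14 macrophage markers, 1 was called higher and 6 lower in MSC+RAW-LPS-TW against MSC, beside 5.85% and 5.09% of all genes. Cd68 was at 556 to 581 CPM in MSC and 72.03 to 87.7 CPM in MSC+RAW-LPS-TW, and Adgre1, the F4/80 antigen, at 517 to 585 CPM and 1397 to 1538 CPM. Of 12 stromal markers 3 were called higher and 0 lower, beside the same shares. Between the co-cultures 4 macrophage markers were called higher and 7 lower with stimulated RAW cells (median log2 fold change -1.12), and 5 stromal markers higher and 1 lower (0.76). Over all genes 15.4% were called higher and 12% lower in that comparison. In MSC+RAW-TW against MSC 2 macrophage markers were called higher and 0 lower, and 2 stromal markers higher and 2 lower. There 6.8% of all genes were called higher and 9.59% lower. Markers of neutrophils summed to 0.588 to 0.763 CPM in MSC and 28.9 to 39.8 CPM in MSC+RAW-LPS-TW. Nearly all of the latter was 1 gene, Camp, at 28.7 to 39.5 CPM, and Ly6g, Elane, Mpo and Ltf had at most 3 counts in each MSC+RAW-LPS-TW library. Their part in the rise of the effector genes was not tested.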

How the data were processed

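Poly(A) RNA of 12 libraries was sequenced as paired-end reads. The authors trimmed reads with Trim Galore 0.6.7, aligned them to GRCm38 with HISAT2 2.1.0 and deposited raw featureCounts 2.0.1 counts per gene, unfiltered and not normalized, with exon lengths in bp. The kit marks strand, but the strand setting of the counting is not given in the sources used here. Among genes with a low nonzero count, 60.0% to 71.4% of the counts per library were even numbers.

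Gene names came from GENCODE vM21 (55141 of 55487 identifiers). The members and lists were chosen with earlier results of these data known. Each table was analyzed with edgeR 4.0.16 in R 4.3.3 (TMM, filterByExpr, quasi-likelihood F-test, two-sided, group only), and p-values were adjusted over all genes tested. Near-identical libraries (chi-square per gene growing less than 2 times from low to high counts) were summed. Per-library CPM keep all libraries apart. The fits were tested on simulated data. Alternatives were DESeq2 1.42.0, RLE scaling, other filters, no fold limit, separate libraries, blocks, detrending on GC content and length (span 0.3), and leaving out each library.

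Values per library are given for the 10 called members with the largest change in OVX against sham and in MSC+RAW-LPS-TW against MSC, for called members that moved against the majority, and for the most abundant member of each role per kb. Called pathway genes are named, and 1 item of that list is not reported here. Other values were chosen after they were seen.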

Additional observations from a re-analysis of the deposited data

How the results depend on the processing

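Of the numbers of members called, those higher and lower in OVX stayed at 0 and 11 to 20 when 1 library was left out, and the lowest, 11, was without OVX replicate 2. Against MSC, MSC+RAW-LPS-TW had 13 to 16 higher and 0 to 1 lower, and MSC+RAW-TW had 4 higher and 3 to 7 lower. The stimulated against the untreated co-culture had 17 to 19 higher and 1 to 2 lower. With no fold limit MSC+RAW-LPS-TW against MSC had 26 higher and 3 lower (11.1% and 9.85% of all genes), MSC+RAW-TW against MSC had 6 and 12 (13.8% and 14.8%), the stimulated against the untreated co-culture had 23 and 3 (21.3% and 18.9%), and OVX had 0 and 23 (7.26% and 5.83%). With trends on GC content and length removed, 0 were lower in MSC+RAW-TW against MSC; the cause was not tested.

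The replicate numbers were shared by OVX and sham. The correlations of the deviations of same-numbered libraries were 0.409, -0.027 and 0.354, and those of the other pairs ran from -0.482 to 0.306. Deviations are centered within each group and near-identical sham libraries give like values, so these correlations cannot decide whether the numbers mark pairs. With the near-identical libraries split again into separate samples 20 members were lower in OVX and 0 higher, and with the replicate block added to that fit 19 and 0. No 2 groups of the MSC table share more than 1 column number, so no replicate block could be fitted there. The library series as a block, also with separate libraries and chosen after seeing the data, gave 20 lower in OVX, 14 higher and 1 lower in MSC+RAW-LPS-TW against MSC, 4 and 6 in MSC+RAW-TW against MSC, and 20 and 1 between the co-cultures.

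Values that changed sign were of members not called, apart from the median log2 fold change of the members, MSC+RAW-TW against MSC, which was -0.207 to 0.06 with 1 library left out. In OVX against sham, Herc6 was at -0.006 with RLE scaling and with DESeq2, -0.84 with trends removed, -0.007 without sham replicates 2 and 3, and -0.108 to 0.067 with 1 library left out (-0.017 without sham replicate 2). Ifih1 was at -0.535 with trends removed, -0.067 without sham replicates 2 and 3 and -0.274 to 0.176 with 1 library left out. Ifi204 was at -0.501 and -0.224 in the first 2 of these settings. Slfn8 was at 0.146 without sham replicates 2 and 3 and -0.37 to 0.055 with 1 library left out (0.004 without sham replicate 3), and Ifit2 at -0.384 to 0.046 with 1 left out. In MSC+RAW-LPS-TW against MSC with 1 library left out, Oas1g was at -0.094 to 0.225 and Slfn5 at -0.144 to 0.226 (-0.026 without MSC replicate 2). In MSC+RAW-TW against MSC with trends removed, Dhx58 was at -0.046, Ifi204 at 0.66, Oas3 at -0.033, Herc6 at 0.232, Slfn5 at 0.103 and Rtp4 at 0.0. With 1 library left out, Ifi204 was at -0.166 to 0.081, Oas1a at -0.079 to 0.05 and Rtp4 at -0.247 to 0.07. Between the co-cultures with trends removed, Oasl1 was at 0.401, Bst2 at 0.179, Slfn1 at -0.189 and Slfn5 at -0.07, and Oasl1 was at -0.446 to 0.203 with 1 library left out.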
